A study of Mus musculus with 71 samples.

Results

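The genes of Polycomb repressive complex 2 (PRC2) were examined in poly(A) RNA-seq of mouse embryonic stem cells (mESCs) of the line R1, with and without 3 of the linker histone H1 genes. The 9 genes were listed by name, with earlier results of these data known. They are the core subunits Ezh1, Eed, Rbbp4 and Rbbp7, the PRC2.1 subunits Mtf2, Phf19 and Epop, and the PRC2.2 subunits Jarid2 and Aebp2, among 24134 genes named in the tables. WT mESCs were compared with H1-TKO mESCs, in which CRISPR/Cas9 editing of the same parental line disrupted H1c, H1d and H1e, genes of somatic-type H1. H1-TKO cells were grown from an edited single cell, so effects of the clone and of the deletion cannot be told apart. Each genotype had 2 libraries, with 8292007 and 10538507 counted reads in WT against 6951619 and 7346122 in H1-TKO mESCs. The study gives its RNA-seq replicates as independent experiments, and no separate clone is named, so the p-values below measure the spread between these libraries.

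The genotype of each RNA-seq library was taken from the column name in its own table, which is opposite to the genotype in the sample label. Every RNA direction below reverses if the labels are right. The growth field of the RNA-seq samples describes the medium of HeLa cells, whereas their cell type and line are given as mESCs of R1. The stem cell genes Pou5f1, Sox2, Zfp42 and Dppa5a were abundant in all 4 libraries, whereas Nanog was at 0 and Esrrb at 3.27 or below, both with several accessions. The targeted genes were too low to check the genotypes. Normalized counts of H1c (H1f2) were 11.6 and 56.7 in WT against 18.7 and 7.37 in H1-TKO mESCs. Those of H1d (H1f3) were 3.88 and 41.4 against 1.10 and 0, and those of H1e (H1f4) 5.43 and 19.6 against 0 and 2.11. H1d and H1e were lower in both H1-TKO libraries, and H1c overlapped.

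PRC2 places mono-, di- and trimethylation on lysine 27 of histone H3, and trimethylation (H3K27me3) marks repressed developmental genes in mESCs. Its catalytic subunit is EZH2 or EZH1, which works only in a complex with EED and SUZ12, while RBBP4 and RBBP7 are alternative histone-binding subunits. Accessory subunits divide the complex into PRC2.1, which holds MTF2, PHF19 or PHF1 with EPOP or PALI1, and PRC2.2, which holds JARID2 and AEBP2. MTF2 and PHF19 are Polycomb-like proteins that bind DNA rich in unmethylated CG dinucleotides.

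Phf19 was the only member with H3K27me3 peaks at a transcription start, as described further on. For that reason the 300 bases directly before the 5′ end of Phf19 are shown beside those of Mtf2, the other Polycomb-like gene among the members, which had no peak there. Both were read from NCBIM37, the same assembly as mm9, at chr2:34769547-34769846 on the minus strand for Phf19 and chr5:108494393-108494692 on the plus strand for Mtf2. They are written 5′ to 3′ along the gene, and capitals mark each CG, which reads the same on both strands.
Phf19: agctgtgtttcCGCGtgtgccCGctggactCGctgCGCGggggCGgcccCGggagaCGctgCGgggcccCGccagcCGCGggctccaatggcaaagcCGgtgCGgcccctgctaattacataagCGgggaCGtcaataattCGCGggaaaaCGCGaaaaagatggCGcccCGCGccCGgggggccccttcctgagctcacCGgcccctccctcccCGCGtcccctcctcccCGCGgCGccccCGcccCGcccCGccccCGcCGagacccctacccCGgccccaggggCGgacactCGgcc
Mtf2: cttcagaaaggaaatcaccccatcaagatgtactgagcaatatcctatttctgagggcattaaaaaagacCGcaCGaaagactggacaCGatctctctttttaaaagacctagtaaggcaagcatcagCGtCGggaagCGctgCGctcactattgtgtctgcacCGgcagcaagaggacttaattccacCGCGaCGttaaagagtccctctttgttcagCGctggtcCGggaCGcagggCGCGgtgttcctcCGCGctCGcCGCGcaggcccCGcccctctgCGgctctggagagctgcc
The Phf19 window held 39 CG dinucleotides and the Mtf2 window 23. At least as many were found in 3.88% and 20.0% of 22374 windows placed the same way at protein-coding genes, whose median was 9. Rbbp7 had 37, Rbbp4 32, Epop 29, Eed 18 and Ezh1 17 in this window, whereas the windows of Jarid2 and Aebp2 held 4 and 2. Each window lies before the outermost annotated 5′ end of the gene, and sequence at other annotated starts was not read.

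All 9 genes passed a filter on low values (4-library mean of 10 or more normalized counts), through 10 of their 19 accessions. A normalized count is the number of reads of 1 RefSeq accession divided by a size factor of the library. Ezh1, Eed, Rbbp4, Rbbp7, Phf19 and Epop have 1 accession each. Mtf2, Jarid2 and Aebp2 have several, and reads that fall on sequence shared by accessions of a gene may be missing, since summed values under 1 were found for 47.7% of coding genes with several accessions and 23.8% of those with 1. Their levels are therefore left out of the order of levels below, and in ratios only the difference between genotypes is read. For these genes a change of the whole gene was not told apart from a change in the transcript form that was counted. The WT replicates differed more than the H1-TKO replicates, with 14.2% of tested accessions at least 2-fold apart against 7.31%.

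Of the 9 members, 1 was called higher in H1-TKO mESCs and 0 lower, at an adjusted p under 0.05 by limma with Benjamini-Hochberg adjustment over 11113 accessions. Over all accessions 20.5% were called, 9.84% higher and 10.7% lower. These are 1094 and 1188 accessions, and scaling by library totals in place of size factors gave 1469 and 781, with 3 members higher (Rbbp7, Mtf2 and Ezh1) and a median over all accessions that was 0.16 higher. The genotypes did not overlap in 5 of the 9 members, 3 with H1-TKO above and 2 below, which compares with 66.4% of all accessions, 32.2% above and 34.2% below. The median log2 fold change of the members was 0.00 against -0.03 over all accessions.

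Among the core subunits Rbbp7 rose and the other 3 did not pass the test. Rbbp7 lies on chromosome X from 159198334 to 159217024 (mm9, plus strand). Its normalized count was 4971 and 3137 in WT against 7591 and 7409 in H1-TKO mESCs. The H1-TKO libraries were close to each other and both above the higher WT library. The fold was 1.90 (log2 fold change 0.93, SE 0.20, 95% interval 0.45 to 1.403, adjusted p = 0.0219 by limma). Leaving out WT replicate 2 gave a log2 fold change of 0.59, and leaving out WT replicate 1 gave 1.26. The call was lost when either H1-TKO library was left out, with log2 fold changes of 0.91 and 0.94 (adjusted p = 0.0756 without replicate 1 and 0.0683 without replicate 2) and when accessions with low counts were kept in the test (adjusted p = 0.0507 for a mean of at least 1 and 0.0533 with no filter), and over the other tests its adjusted p was at most 0.0269 (edgeR).

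Rbbp4, on chromosome 4 from 128984344 to 129012614 (minus strand), encodes the close relative of RBBP7. It had normalized counts of 6638 and 5256 in WT against 5789 and 6065 in H1-TKO mESCs, and the H1-TKO values lay between the WT values. Its log2 fold change was 0.00 with a 95% interval of -0.32 to 0.33 (adjusted p = 0.984 by limma). It was called lower without WT replicate 2 (-0.16, adjusted p = 0.0289 by limma) and higher without WT replicate 1 (0.17, adjusted p = 0.0200 by limma), when the H1-TKO libraries alone gave the spread. The ratio of Rbbp7 to Rbbp4 within a library was 0.749 and 0.597 in WT against 1.31 and 1.22 in H1-TKO mESCs, and both H1-TKO values were above both WT values.

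Eed encodes the subunit that binds H3K27me3 and stimulates the enzyme, and lies on chromosome 7 from 97103166 to 97129493 (minus strand). Its normalized counts were 2826 and 2918 in WT against 3012 and 2855 in H1-TKO mESCs. These values overlapped, and the log2 fold change of 0.03 had a 95% interval of -0.24 to 0.30 (adjusted p = 0.869 by limma).

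Ezh1, on chromosome 11 from 101052429 to 101087777 (minus strand), encodes the less active of the alternative methyltransferases. Its normalized counts were 773 and 863 in WT against 1091 and 1029 in H1-TKO mESCs, with both H1-TKO libraries higher. The log2 fold change of 0.38 (SE 0.14, 95% interval 0.04 to 0.71) did not pass the test (adjusted p = 0.101 by limma). The adjusted p was 0.0186 and 0.000227 without WT replicate 1 and 2, with the spread of the H1-TKO pair alone, and 0.568 and 0.460 without H1-TKO replicate 1 and 2. The median log2 fold change of the 914 tested accessions of chromosome 11 was -0.37, and that of Ezh1 was 0.75 above it.

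Per kilobase of the longest coding transcript in GENCODE M1, the 4 highest members in WT mESCs could not be ordered. Their levels in normalized counts per kb were 1807 ± 578 for Rbbp7, 1523 ± 1132 for Epop, 1391 ± 31.3 for Eed and 1349 ± 222 for Rbbp4 (SD, n = 2), and neighbours in this order overlapped. Ezh1 at 194 ± 15.1 and Phf19 at 91.97 ± 21.3 followed, and neither overlapped its neighbour. In H1-TKO mESCs the order was Rbbp7 (3342 ± 57.3), Eed (1421 ± 53.8), Rbbp4 (1345 ± 44.4), Epop (716 ± 32.3), Ezh1 (252 ± 10.4) and Phf19 (53.1 ± 10.2), all SD with n = 2. Neighbours in this order did not overlap, although Eed (1383 to 1459) and Rbbp4 (1314 to 1376) nearly met.

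The PRC2.1 subunits did not move together, and none passed the test. Mtf2 lies on chromosome 5 from 108494693 to 108538023 (plus strand), and 2 of its 5 accessions were tested. The normalized counts of the more abundant one, NM_001253877, were 111 and 134 in WT against 220 and 201 in H1-TKO mESCs. Those of NM_001253878 were 65.9 and 57.8 in WT against 97.0 and 87.4 in H1-TKO mESCs. Both accessions were higher in both H1-TKO libraries than in either WT library, and the other 3 were at 0 throughout. The log2 fold changes were 0.78 (SE 0.24, 95% interval 0.22 to 1.34, adjusted p = 0.0565 by limma) and 0.57 (SE 0.31, 95% interval -0.15 to 1.29, adjusted p = 0.214 by limma). When the accessions of each gene were summed, Mtf2 passed with a log2 fold change of 0.71 (adjusted p = 0.0462 by limma). Over the settings with all 4 libraries the adjusted p of NM_001253877 was between 0.0324 and 0.0940, and it was 0.0127 and 0.000520 without WT replicate 1 and 2, when the H1-TKO libraries alone gave the spread. It was 0.401 and 0.303 without H1-TKO replicate 1 and 2.

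Phf19, on chromosome 2 from 34749277 to 34769546 (minus strand), had normalized counts of 288 and 400 in WT against 226 and 172 in H1-TKO mESCs. Both H1-TKO libraries were below both WT libraries. The log2 fold change was -0.78 (SE 0.25, 95% interval -1.37 to -0.20, adjusted p = 0.0639 by limma). It was past the threshold without WT replicate 1 (adjusted p = 1.54e-06) or 2 (0.0235), again with the spread of the H1-TKO pair alone, and not without H1-TKO replicate 1 (0.157) or 2 (0.416). The adjusted p lay between 0.0138 and 0.115 over the settings with 4 libraries. The ratio of Mtf2 to Phf19, 0.385 and 0.335 in WT libraries, was 0.976 and 1.17 in H1-TKO libraries. Its log2 value moved by 1.56 and the genotypes did not overlap. Mtf2 is represented in this ratio by NM_001253877 alone.

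Epop encodes a PRC2.1 subunit that links the complex to Elongin B and C, and lies on chromosome 11 from 97488707 to 97491030 (minus strand). Its normalized counts were 1680 and 5399 in WT against 1718 and 1611 in H1-TKO mESCs. WT replicate 2 stood apart, and WT replicate 1 lay between the H1-TKO libraries. The log2 fold change of -0.86 (SE 0.46, adjusted p = 0.211 by limma) became -0.01 when WT replicate 2 was left out and -1.70 when WT replicate 1 was. Among the settings with all 4 libraries Epop passed only with a block for the replicate number (adjusted p = 1.29e-05 by limma). The coding transcript of Epop has 67.0% G and C, more than 99.8% of the tested accessions with a value. When accessions were split into 10 equal groups by G and C, the median log2 difference of WT replicate 2 minus WT replicate 1 was 0.23 in the group with most. In the group with least it was -0.22. Between the H1-TKO replicates the same medians were 0.03 and -0.01. The difference of Epop was 1.68, and the part of base composition in it was not tested.

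Neither PRC2.2 subunit passed the test. Jarid2 encodes a DNA-binding subunit without demethylase activity, and lies on chromosome 13 from 44824843 to 45017012 (plus strand). Its accession NM_001205043 had normalized counts of 90.0 and 92.7 in WT against 71.6 and 76.9 in H1-TKO mESCs, while its other 2 accessions were at 0. Both H1-TKO libraries were lower, with a log2 fold change of -0.30 (SE 0.29, 95% interval -0.98 to 0.39, adjusted p = 0.493 by limma). Aebp2, a zinc finger protein gene on chromosome 6 from 140570970 to 140626993 (plus strand), had normalized counts of 10.9 and 40.4 in WT against 11.0 and 17.9 in H1-TKO mESCs in its accession NM_178803. These are 14, 37, 10 and 17 reads, and the genotypes overlapped. The log2 fold change of -0.56 had a 95% interval of -2.27 to 1.16 (adjusted p = 0.612 by limma) and was 0.35 without WT replicate 2.

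Whether PRC2.1 and PRC2.2 transcripts moved apart was described by ratios within each library. Of the 6 ratios of a PRC2.1 to a PRC2.2 subunit, 2 were higher in both H1-TKO libraries, 1 was lower and 3 overlapped, beside 66.4% of single accessions without overlap. The higher ones were both of Mtf2. The ratio of Mtf2 to Jarid2 was 1.23 and 1.45 in WT against 3.08 and 2.62 in H1-TKO mESCs. The ratio of Phf19 to Jarid2 was 3.20 and 4.32 in WT against 3.15 and 2.23 in H1-TKO mESCs, so that the nearest libraries of the genotypes almost touched. The ratio of Epop to Jarid2 was 18.7 and 58.2 in WT against 24.0 and 21.0 in H1-TKO mESCs. The ratio of Mtf2 to Aebp2 was 10.2 and 3.32 in WT against 20.0 and 11.2 in H1-TKO mESCs, and rests on the 10 to 37 reads of Aebp2.

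The mean log2 level of the 3 PRC2.1 subunits minus that of the 2 PRC2.2 subunits was 3.53 and 3.42 in WT against 3.90 and 3.32 in H1-TKO mESCs. The WT values lay within the H1-TKO values. The difference of 0.14 between genotypes was smaller than the pooled SD between replicates, 0.30. It turned to -0.15 without H1-TKO replicate 1, and was 0.43 without H1-TKO replicate 2, 0.43 without Epop and 0.27 after chromosome medians were subtracted. As a group the subunits of PRC2.1 and of PRC2.2 were not shown to move apart at this spread.

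Of the 6 other PRC2 genes examined, 2 could be tested. Lcor, whose locus also encodes the PRC2.1 subunit PALI1, lies on chromosome 19 from 41557127 to 41636736 (plus strand). Its normalized counts were 93.9 and 185 in WT against 35.3 and 37.9 in H1-TKO mESCs, and it was lower in both H1-TKO libraries (log2 fold change -1.82, SE 0.40, adjusted p = 0.0218 by limma). PALI1 and LCOR transcripts were not told apart, and the call was lost without H1-TKO replicate 1 (adjusted p = 0.0728) or 2 (0.0621). Its paralog Lcorl, on chromosome 5, had normalized counts of 148 and 80.7 in WT against 195 and 232 in H1-TKO mESCs, with a log2 fold change of 0.95 (SE 0.33, adjusted p = 0.0791 by limma). The methyltransferase gene Ezh2, Suz12 and Phf1 each have several accessions, and every accession was at 5.43 or below in each library. Ezhip, an inhibitor of PRC2, also has several accessions and was at 5.45 or below. Such values do not measure these genes in mESCs.

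RBBP4 and RBBP7 also serve in the NuRD and SIN3 deacetylase complexes, in chromatin assembly factor 1 and with the acetyltransferase HAT1. Of 16 such partner genes 13 were tested, 1 rose and 3 fell, beside 20.5% of all accessions called. Hat1, whose product acetylates new histone H4 together with RBBP7, rose with normalized counts of 4169 and 3576 in WT against 8380 and 8558 in H1-TKO mESCs (change on the log2 scale 1.13, adjusted p = 0.00314 by limma). The histone deacetylase gene Hdac1 fell, with normalized counts of 413 and 368 in WT against 73.8 and 76.9 in H1-TKO mESCs (change on the log2 scale -2.35, adjusted p = 0.00232 by limma), while its paralog Hdac2 had a log2 fold change of -0.14 (adjusted p = 0.436 by limma). The NuRD genes Gatad2b (-0.72) and Mta1 (-0.69) also fell, but both calls were lost when either H1-TKO library was left out (adjusted p from 0.144 to 0.244 by limma), and that of Mta1 with library totals (0.0652). The median of the 13 genes was -0.15 against -0.03 over all accessions.

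In PRC1, the complex that ubiquitinates histone H2A and binds H3K27me3 through its CBX subunits, 14 of 22 genes were tested, 1 rose and 3 fell, beside the same 20.5%. Pcgf1, the subunit of a variant PRC1, rose by 1.43 on the log2 scale. Phc1 (-1.86), Kdm2b (-1.79), which binds CG-rich DNA in that same variant complex, and Cbx7 (-0.74) fell. Without H1-TKO replicate 1 or 2 the calls of Pcgf1, Phc1 and Cbx7 were lost (adjusted p from 0.0757 to 0.211 by limma), and that of Kdm2b was not. Phc1 also lost its call with no filter (adjusted p = 0.0533 by limma). The catalytic subunit gene Rnf2 had a log2 fold change of 0.14 (adjusted p = 0.463 by limma). The median of the PRC1 genes was -0.33. The H3K27 demethylase genes Kdm6a (-0.50, adjusted p = 0.0571) and Kdm6b (-0.34, adjusted p = 0.190) did not pass the test. Of 6 tested linker histone genes, H1f0 (1.98) and H1f10 (1.63) rose, beside 9.84% of all accessions called higher, and none of the other 4 passed. H1f3 (-3.31, adjusted p = 0.105 by limma) and H1f5 (-3.36, 0.0834) were lower in both H1-TKO libraries, at normalized counts of 44.7 or below. H1f1 and H1f2 overlapped.

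Other features differed between the genotypes beside these results. Some markers of cell types were called, beside 20.5% of all accessions, 9.84% higher and 10.7% lower. In bulk RNA fewer cells of a type and less RNA per cell cannot be told apart. Of 3 tested neural markers Nes and Tubb3 fell. Nes had normalized counts of 2920 and 849 in WT, 3.44-fold apart, against 204 and 224 in H1-TKO mESCs. The summed normalized count of the neural list was 2297 to 3851 in WT and 813 to 879 in H1-TKO mESCs. Map2 was at 1.55 or below and Pax6 at 20.7 or below. Of 3 tested fibroblast markers Col1a1 fell and Thy1 rose (summed 299 to 354 and 510 to 576), with Dcn and Postn at 0. Of 4 tested extraembryonic endoderm markers Lama1 fell (summed 1343 to 1716 and 832 to 920), with Sox17 at 0. Of 8 tested stem cell markers 3 rose and 1 fell (summed 34354 to 44934 and 51275 to 51862), and Nanog was at 0. Nanog, Esrrb, Dcn, Postn, Sox17, Map2 and Pax6 have several accessions each, so these low values may not measure the genes. Chromosome medians of the log2 fold change were -0.37 on chromosome 11, which carries Ezh1 and Epop, between -0.09 and 0.04 on the chromosomes of the other members, and 0.50 on chromosome 1, -0.24 on chromosome 8 and -5.61 on chromosome Y (5 accessions), which carry none of them. The part of these features in the members' values was not tested.

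H3K27me3, the product of PRC2, was looked up at the members in the ChIP-seq peak lists of WT (6957 peaks) and H1-TKO mESCs (6262 peaks), 1 replicate each and named by their labels. A peak within 2 kb of an annotated transcription start was listed for 1 of the 9 members in WT and 0 in H1-TKO mESCs, against 14.4% and 13.1% of 22380 protein-coding genes. That member was Phf19. Its WT peaks spanned chr2:34768312-34768854 with a MACS score of 77.6, chr2:34768945-34769471 with 73.0 and chr2:34769655-34770154 with 50.5. The first pair lie within the gene, from 75 to 1234 bp after its 5′ end, and the last spans -608 to -109 bp from it, over 192 of the 300 bases printed above. The score is -10 times the log10 of the p-value, so the upstream peak was just past the lowest listed score of 50.01.

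No H1-TKO peak was listed within 10 kb of a Phf19 start. Among the 3413 WT peaks with a score up to 77.6, an H1-TKO peak overlapped 31.0% by at least 1 bp, so most WT peaks of this strength were not listed in H1-TKO mESCs. With 1 list per genotype this difference has no replicate check. Away from the starts, an H1-TKO peak with a score of 64.7 lay 5802 bp from a start of Rbbp7, and one with a score of 74.0 lay inside Eed at chr7:97104718-97104918. WT peaks within 2 kb of a start were also listed for Ezh2 (score 67.6), Lcorl (64.2) and Ezhip (51.8), and none for Suz12, Phf1 or Lcor. The Ezh2 peak lies inside the gene, 53361 to 53535 bp after its 5′ end and 1097 bp from the nearest annotated start. It is therefore not a peak at the 5′ end of Ezh2, whereas those of Lcorl and Ezhip lie within 2 kb of the 5′ end.

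**Figure D1:**
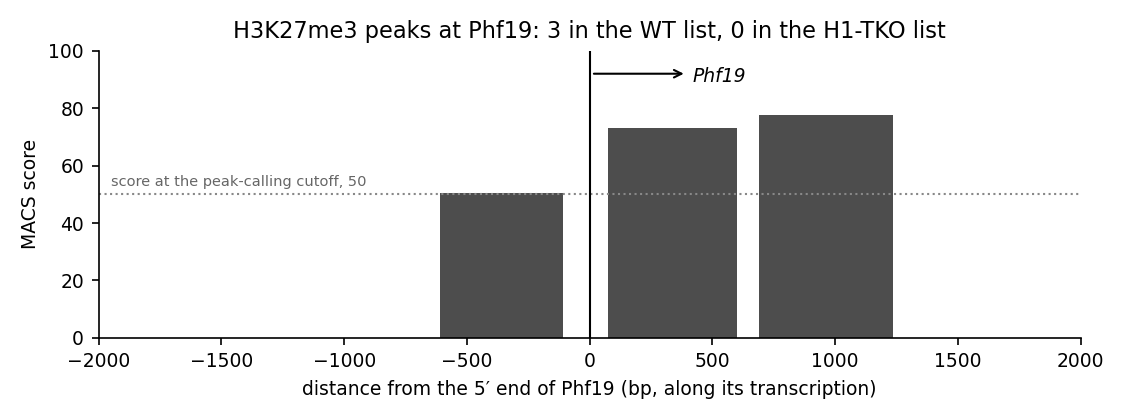
H3K27me3 peaks around the 5′ end of Phf19, as bars as wide as the peak and as high as its MACS score, by distance in bp along the direction of transcription. All 3 bars are WT peaks, with scores of 50.5, 73.0 and 77.6 from left to right, and no H1-TKO peak is listed in this range.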

How the data were processed

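For poly(A) RNA-seq the authors used Subread and the gene models of mm9, counted uniquely mapped reads per RefSeq accession with featureCounts and divided each library by a DESeq2 size factor (versions are not given in the sources used here). The deposited signal is this normalized count, and 100% of values were whole reads within 0.01 of a read. H3K27me3 reads were aligned by the authors with bowtie2 to mm9, and the deposited score of each MACS peak is −10 times the log10 of its p-value. Other ChIP-seq and ChOR-seq samples were not analysed here.

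Column names gave the genotypes, opposite to the sample labels. Over 1999 rows each library equalled the column of the same name in the study's source data in 100% of rows and that of the other genotype in 0%. The members and gene lists were chosen with earlier results of these data known.

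Accessions averaging 10 or more normalized counts were tested with limma 3.58.1 (R 4.3.3, eBayes with trend, two-sided) on log2(normalized count + 1), with Benjamini-Hochberg adjustment, and a fold change on this scale understates the change of low genes. Of 34010 accessions 33646 had a symbol in a RefSeq table and 31401 a place in GENCODE M1 (NCBIM37). edgeR 4.0.16 and DESeq2 1.42.0 on the recovered reads, other pseudocounts, scalings and filters, a block for the replicate number, each library left out, chromosome medians, summed accessions and other peak limits were alternatives. Members, other PRC2 genes, H3K27 demethylase genes and linker histone genes were all named. In other lists at most 5 genes were named, those past the threshold with the largest changes. Genes added for contrast (Hdac2, Rnf2) and marker genes were named after their values were seen. Python 3.11.15, numpy 2.4.6, pandas 2.3.3 and scipy 1.17.1 were used.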

Additional observations from a re-analysis of the deposited data

How the results depend on the processing

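The call of Rbbp7 was lost without either H1-TKO library, where its log2 fold change was 0.91 and 0.94, and with no filter, where it stayed 0.93. Over all accessions H1-TKO mESCs had 1094 higher and 1188 lower. The counts were 624 and 697 with no filter, 702 and 765 with a mean of at least 1, and 1469 and 781 with library totals, which moved the median of all accessions by 0.16 and the share of higher calls with it. With 1 library left out the counts ran from 199 to 2682 higher and from 386 to 2786 lower. They were largest without a WT library, when the H1-TKO replicates set the spread. Of the 9 members 1 was higher and 0 lower. Higher members numbered 0 with no filter or a mean of at least 1, 3 with library totals (Rbbp7, Mtf2 and Ezh1, whose distance from the median of all accessions was 0.40 in either scaling), 2 with summed accessions (Rbbp7 and Mtf2), and 0 to 4 with 1 library left out, when lower members numbered 0 to 2. edgeR, DESeq2, TMM scaling, quantile normalization, both other pseudocounts and a mean of at least 100, which left 7 members to test, gave 1 higher and 0 lower.

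Same-numbered replicates did not deviate together (r = 0.01 over 11113 accessions). With so few libraries this cannot show whether they shared a culture or a preparation. With a replicate block 2 members were higher (Rbbp7 and Mtf2) and 2 lower (Phf19 and Epop), and over all accessions 1521 and 1778.

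The difference between PRC2.1 and PRC2.2 ran from -0.15 to 0.43 with 1 library left out, from a value of 0.14. Directions reversed for Rbbp4 with TMM scaling (-0.0016). With 1 library left out the log2 fold change of Rbbp4 ran from -0.16 to 0.17, that of Eed from -0.0083 to 0.069 and that of Aebp2 from -1.46 to 0.35. No member had an H3K27me3 peak in the WT list (0 members) at a score of at least 100, and 1 member, Rbbp7, had one in the H1-TKO list within 10 kb. The causes of these changes were not tested. Aebp2 had 10 to 37 reads a library.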
